A study of Homo sapiens with 32 samples.

Results

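The acetylation landscape described here is that of SK-N-BE(2)C cells kept in DMSO, the solvent control, before any drug acts on it. SK-N-BE(2)C is an established human neuroblastoma line with amplified MYCN, and it belongs to the adrenergic type, which resembles sympathetic neuron precursors. The members are the 4 DMSO libraries of chromatin immunoprecipitation and sequencing (ChIP-seq) for acetylated lysine 27 of histone H3 (H3K27ac), out of 16 ChIP libraries and 32 samples in the series. Their 334773 broad peaks, of 1406903 in all ChIP libraries, were used together with the deposited mean DMSO concentration of 92108 regions. The cells had been in DMSO for 5 days, and the authors called the peaks against input, of which the group has 4 libraries. The other groups of the study, treated with palbociclib, retinoic acid or both, enter no comparison here. The study's methods call the 4 libraries biological replicates, all of 1 cell line, so the values describe this line and not neuroblastoma in general.

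H3K27ac sits on the nucleosomes that flank active promoters and enhancers, and the DNA in such places is open to transcription factors. Most expressed genes carry a narrow block of the mark around the start site. Genes that define a cell's identity often carry the mark over long stretches as well, made of clustered enhancers that several lineage factors bind together. In adrenergic neuroblastoma those factors include HAND2, GATA3 and ISL1, which bind each other's enhancers in what is called a core regulatory circuit, with MYCN driving growth.

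The promoters of 5 genes on which the results turn are shown first. They are the 3 genes given as markers of these cells, PHOX2A, whose start-site region was the strongest of the adrenergic list, and ANP32B, whose start site lay in the strongest region with a start site inside. Each sequence covers 300 bases of GRCh37 (the primary assembly of hg19) in the direction of transcription, 250 before the start site and 50 from it on, and capitals mark matches to 7 motifs on either strand. The motifs were the TATA box (TATAAA), the CCAAT box (CCAAT), the GC box (GGGCGG), the E-box of MYC proteins (CACGTG) and the motifs of ETS factors (CCGGAAG), NRF1 (GCGCATGCG) and YY1 (AAGATGGCG), and matches may overlap.
MYCN promoter, chr2:16080422-16080721, plus strand: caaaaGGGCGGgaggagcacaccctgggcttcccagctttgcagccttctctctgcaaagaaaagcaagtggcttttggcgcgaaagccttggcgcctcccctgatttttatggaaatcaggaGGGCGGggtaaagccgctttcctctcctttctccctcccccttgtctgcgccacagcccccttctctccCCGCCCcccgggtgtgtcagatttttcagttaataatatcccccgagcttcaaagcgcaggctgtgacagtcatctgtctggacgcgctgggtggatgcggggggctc
HAND2 promoter, chr4:174451331-174451630, minus strand: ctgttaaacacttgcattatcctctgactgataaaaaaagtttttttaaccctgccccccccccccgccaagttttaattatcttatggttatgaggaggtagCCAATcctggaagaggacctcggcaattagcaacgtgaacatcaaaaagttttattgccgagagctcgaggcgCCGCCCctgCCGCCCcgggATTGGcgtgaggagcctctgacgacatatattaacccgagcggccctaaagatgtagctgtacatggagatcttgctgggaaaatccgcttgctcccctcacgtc
GATA3 promoter, chr10:8096401-8096700, plus strand: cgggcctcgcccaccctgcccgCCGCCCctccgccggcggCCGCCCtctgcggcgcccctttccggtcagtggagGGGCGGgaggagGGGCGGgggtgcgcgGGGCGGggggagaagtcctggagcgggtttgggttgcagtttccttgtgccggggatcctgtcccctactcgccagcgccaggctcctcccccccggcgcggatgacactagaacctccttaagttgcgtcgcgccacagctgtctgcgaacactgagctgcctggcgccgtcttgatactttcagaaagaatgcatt
PHOX2A promoter, chr11:71955171-71955470, minus strand: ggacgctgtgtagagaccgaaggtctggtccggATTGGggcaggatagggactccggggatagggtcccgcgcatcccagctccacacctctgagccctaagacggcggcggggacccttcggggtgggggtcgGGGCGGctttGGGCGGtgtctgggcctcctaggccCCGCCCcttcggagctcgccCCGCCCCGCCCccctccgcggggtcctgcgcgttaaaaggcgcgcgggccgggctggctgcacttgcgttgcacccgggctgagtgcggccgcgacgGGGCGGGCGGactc
ANP32B promoter, chr9:100745373-100745672, plus strand: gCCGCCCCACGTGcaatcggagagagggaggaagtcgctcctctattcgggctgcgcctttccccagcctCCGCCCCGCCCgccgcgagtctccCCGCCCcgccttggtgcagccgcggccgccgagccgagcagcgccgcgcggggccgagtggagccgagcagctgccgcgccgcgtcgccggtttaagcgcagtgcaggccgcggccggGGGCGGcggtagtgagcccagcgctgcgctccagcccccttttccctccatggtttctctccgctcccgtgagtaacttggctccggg

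The matches in these promoters were mostly GC boxes, the letters of which occurred in 62.1% of 19167 protein-coding promoters of the same length. The MYCN promoter held 3, that of HAND2 held 2, that of GATA3 held 5, that of PHOX2A held 7 and that of ANP32B held 5. HAND2 had 2 CCAAT boxes and PHOX2A had 1, a motif found in 35.99% of all promoters. ANP32B also had 1 CACGTG, which 8.81% of all promoters held. GC content was 58.7% for MYCN, 50.3% for HAND2, 69.3% for GATA3, 73.7% for PHOX2A and 74.0% for ANP32B, against a median of 63.7% over all promoters.

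Acetylated regions away from start sites are represented by 3 stretches of 300 bases. Each is the stretch of its region with the most different motifs among 5, so the matches were sought and are no finding. The regions are the widest distant regions near HAND1 and GATA3, and the one inside EEFSEC next to GATA2. Capitals mark the GATA motif (AGATAA), the E-box of HAND proteins (CAGATG), the paired homeobox motif (TAAT and AATTA with 2 bases between), the TFAP2 motif (GCCNNNGGC) and the AP-1 motif (TGANTCA) on either strand, with overlaps kept.
region near HAND1, chr5:153898046-153898345, plus strand: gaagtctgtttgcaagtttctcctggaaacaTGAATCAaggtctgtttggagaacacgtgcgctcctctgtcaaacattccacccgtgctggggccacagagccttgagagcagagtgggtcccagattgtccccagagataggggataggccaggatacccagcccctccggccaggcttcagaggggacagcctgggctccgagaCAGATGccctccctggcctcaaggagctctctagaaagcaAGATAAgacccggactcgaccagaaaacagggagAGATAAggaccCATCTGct
region near GATA3, chr10:8157212-8157511, plus strand: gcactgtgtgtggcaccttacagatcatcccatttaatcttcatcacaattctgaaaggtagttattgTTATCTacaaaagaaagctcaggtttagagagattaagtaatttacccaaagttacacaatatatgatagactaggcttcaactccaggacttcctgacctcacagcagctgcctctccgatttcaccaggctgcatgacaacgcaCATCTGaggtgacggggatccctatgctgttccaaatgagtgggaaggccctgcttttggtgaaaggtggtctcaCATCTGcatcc
region inside EEFSEC, chr3:128099701-128100000, plus strand: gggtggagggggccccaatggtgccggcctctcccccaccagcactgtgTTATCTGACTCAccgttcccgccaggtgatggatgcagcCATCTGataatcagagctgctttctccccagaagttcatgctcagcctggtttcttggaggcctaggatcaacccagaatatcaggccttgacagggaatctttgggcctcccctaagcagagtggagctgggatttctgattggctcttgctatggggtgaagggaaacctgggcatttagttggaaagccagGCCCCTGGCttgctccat

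The 4 DMSO libraries differed in their number of broad peaks, with replicate 3 apart from the rest. DMSO replicates 1 to 4 held 90540, 92359, 64516 and 87358 peaks, which covered 135, 160, 107 and 167 Mb (142 ± 27.4 Mb, SD, n = 4). Replicate 3 had the fewest peaks and the highest median enrichment, 3.45, against 3.34, 3.16 and 3.05 in replicates 1, 2 and 4. Enrichment is the authors' ratio of ChIP over input at a peak. The files give no read depth, for a library or for a single region, and its part in these differences was not tested. Enrichment is also an average over many cells, so fewer cells with the mark and less of it per cell cannot be told apart.

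Overlapping peaks of the 4 libraries, by 1 base or more, were joined into 128283 regions. Of these, 39231 (30.6%) had a peak in 4 of 4 libraries, 14672 in 3, 18910 in 2 and 55470 in 1. The regions in 4 of 4 libraries held 70.9% of all merged bases, 161 Mb or 5.19% of the genome. They were wider and stronger than the rest, with a median width of 2792 bp and a median enrichment of 4.33. Regions just outside that limit, in 3 of 4 libraries, had medians of 1358 bp and 3.03, and those in 1 library 342 bp and 2.79. Part of this order follows from the merging, since a region spans all peaks joined in it. Wide or strong sites are also more readily called in every library, so the order is a description only. Replicate 3 alone lacked a peak in 9239 of the 14672 regions found in 3 libraries, and without it 48628 regions had a peak in each of the other 3, with a median width of 2405 bp and a median enrichment of 3.81. Across the 39231 regions, Spearman's rho between pairs of libraries ranged between 0.847 and 0.902 for enrichment and between 0.724 and 0.870 for bases under peaks. These points share cells, input design and genome, and the correlations are descriptions.

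Start sites carried the stronger acetylation and distant sites the larger number of regions. Within 3 kb of a protein-coding start site lay 14293 of the regions in 4 of 4 libraries (36.4%), with a median enrichment of 10.3 and a median width of 3031 bp. The 24938 farther regions had medians of 3.68 and 2646 bp. The order held in each library, with medians near start sites of 8.43, 10.1, 11.8 and 10.2 in replicates 1 to 4, against 3.74, 3.86, 3.60 and 3.61 far from them. Regions in a single library were near a start site in 10.6% of cases. Of the reproducible regions, 31.5% lay in introns, 3.29% in exons outside start sites, 5.26% in named lncRNA genes and 23.5% between genes, and 6605 (16.8%) lay over 100 kb from any protein-coding start site.

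Width and strength picked out different places. Here and below, a width with an SD is the number of bases that the peaks of a library covered, averaged over libraries, and ranks by width use that mean. Among the 1000 regions of highest enrichment, 957 held a start site, and the median of their mean widths was 2989 bp. Among the 1000 widest, 531 did, and over all 39231 regions 12661 (32.3%) did, a lower share than in either list. The lists had 16 regions (1.6% of each) in common. Each list takes 1000 of 39231 regions, so unrelated lists would also share few. Spearman's rho between the full width of the merged region and mean enrichment over the 39231 regions was 0.304, given as a description. Regions over 10 kb numbered 2491 and held 27.1% of the bases of the regions in 4 of 4 libraries.

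**Figure D1:**
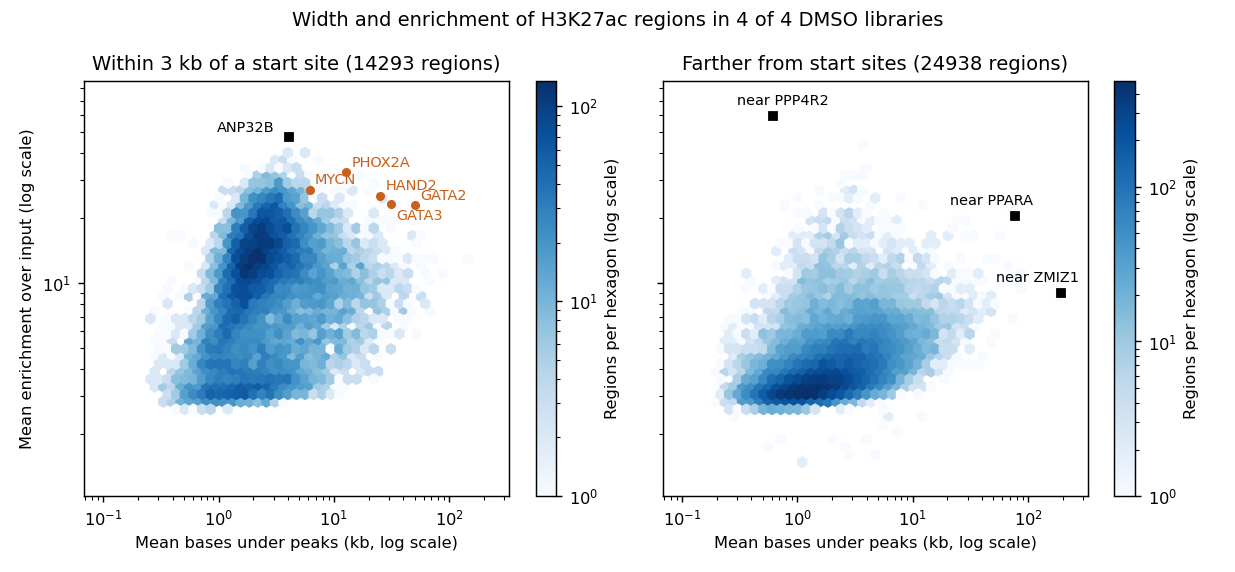
Mean bases under peaks (kb, log scale) against mean enrichment over input (log scale) of the 39231 regions with a peak in 4 of 4 DMSO libraries, as hexagons coloured by the number of regions, for regions within 3 kb of a start site (left) and farther away (right), with named regions as points. HAND2, GATA3 and GATA2 lie at the wide side of the start-site regions, ANP32B at the top, and the bulk of the distant regions lies near an enrichment of 3.68.

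Among the 10 regions of highest enrichment, 8 at start sites are described here. ANP32B, which encodes an acidic nuclear phosphoprotein with histone chaperone activity, led with an enrichment of 50.6, 51.5, 44.7 and 43.4 in replicates 1 to 4 (47.5 ± 4.07, SD, n = 4) over a region of 4.76 kb at chr9:100744550-100749311. Its paralogue ANP32A had 38.4, 46.3, 39.0 and 40.5 (41.0 ± 3.61, SD, n = 4). The ranges of both genes overlapped. YWHAZ, an adaptor that binds phosphorylated proteins, had 40.5 ± 8.61 (SD, n = 4), with the lowest value, 29.2, in replicate 4. ATXN2L, an RNA-binding protein of stress granules, had 39.8 ± 4.05, and MSL1, the scaffold of a histone acetyltransferase complex, 39.4 ± 3.80. CUL1, the scaffold of SCF ubiquitin ligases, had 38.4 ± 5.42, the kinase DYRK1A 38.3 ± 4.19, and PPP4R3A, a regulatory subunit of a serine/threonine phosphatase, 38.1 ± 8.55 (SD, n = 4 each). None of these 8 start-site regions was wide, with mean widths between 3.20 and 5.81 kb.

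The first region of all by mean enrichment lay far from start sites and differed far more between libraries. At chr3:73159856-73161097, it stood 46.7 kb from PPP4R2, in no named gene, and had 35.9, 95.3, 29.4 and 78.9 in replicates 1 to 4 (59.9 ± 32.3, SD, n = 4). Replicates 2 and 4 were high and replicates 1 and 3 low, the same split as at the MYCN start site. It overlapped no region of the deposited concentration tables used here.

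The widest acetylation covered the bodies of genes, well past the start site. The first region lay at chr10:80846815-81056656, inside the gene of the transcriptional coactivator ZMIZ1, and covered 198, 207, 168 and 203 kb in replicates 1 to 4 (194 ± 17.7 kb, SD, n = 4) at an enrichment of 9.01 ± 1.71. The second, at chr15:74460178-74615582, spanned the start sites of ISLR, STRA6 and CCDC33 and covered 151 ± 4.63 kb (SD, n = 4) at 12.9 ± 3.70. STRA6 encodes the cell-surface receptor that takes up retinol from its carrier protein. In both regions replicate 3 covered the least, 168 kb and 145 kb.

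The other widest regions lay at genes of several kinds. One lay inside DSCAML1, which encodes a neuronal adhesion molecule (88.5 ± 6.23 kb), and its nearest start site, that of CEP164, was 84.8 kb away. One lay inside CLPB, which encodes a mitochondrial chaperone (88.0 ± 4.26 kb), and one at FAM222A (83.1 ± 2.27 kb). MSI2, the gene of a Musashi RNA-binding protein, held a region of 74.95 ± 8.23 kb and TTC7A with STPG4 one of 74.2 ± 8.54 kb. The kinesin gene KIF26A carried 70.8 ± 2.06 kb and GSE1 68.2 ± 5.99 kb (SD, n = 4 libraries each). The eleventh was the gene of RET, a receptor tyrosine kinase of sympathetic neuron development, with 67.4, 72.8, 50.4 and 71.0 kb in replicates 1 to 4 (65.4 ± 10.3 kb, SD, n = 4).

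The sixth widest region covered the host gene of let-7 miRNAs. At chr22:46443409-46527105, over MIRLET7BHG and 19.3 kb from PPARA, it covered 78.8, 81.3, 68.8 and 80.9 kb in replicates 1 to 4 (77.5 ± 5.87 kb, SD, n = 4). Its enrichment of 18.0, 24.4, 18.3 and 21.5 (20.5 ± 3.04, SD, n = 4) was the highest among the 10 widest regions. It contained the hairpins of MIRLET7A3, MIRLET7B, MIR3619 and MIR4763. The let-7 family represses growth genes in differentiating cells, and LIN28B, which blocks its maturation, is a known neuroblastoma oncogene. The mature miRNAs of the let-7 pair are given from RefSeq (GRCh38.p14) with the seed, bases 2 to 8, in capitals, to show that both share it. Of the 4 miRNA genes, all matched the RefSeq table.
hsa-let-7a-5p: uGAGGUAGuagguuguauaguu
hsa-let-7b-5p: uGAGGUAGuagguugugugguu

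LIN28B, named here after its values were seen, was itself marked at its start site in 4 of 4 libraries, with an enrichment of 12.7 ± 1.80 over 6.17 ± 0.39 kb (SD, n = 4). Acetylation over a host gene does not measure the mature miRNA, which these libraries do not hold.

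The deposited mean log2 concentration of DMSO, the authors' group mean of normalized reads in a region, ranks mostly by width. It had a median of 5.08 and a highest value of 14.94 over 92108 regions, and the same DMSO values stand in each of the 3 tables. Spearman's rho with region width was 0.884. The highest values were those of the STRA6 and CCDC33 region (14.94), the let-7 host gene (14.72) and ZMIZ1 (14.60). Next came a region over SPEGNB, SPEG, GMPPA, CHPF, TMEM198 and ASIC4 (14.14), GATA2 with DNAJB8 (14.01), CLPB (13.98), FAM222A (13.92) and the netrin receptor gene UNC5B (13.90). TTC7A, whose nearest start site is that of MCFD2, and EEFSEC, next to GATA2, followed with 13.87 each. These means come with no SD. Divided by length, the order was led by narrow start-site regions again, CUL1 first with a log2 concentration per kb of 8.88. Over the 38246 regions in 4 of 4 libraries with a concentration, Spearman's rho of enrichment was 0.685 with the concentration and 0.874 with the concentration per kb. The 985 without one had a median enrichment of 3.03, against 4.42 for those with one.

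Regions were then stitched into clusters with the mask and gap that the study's methods give, the 2.5 kb on each side of start sites being left out and gaps of up to 12.5 kb bridged. The regions stitched and the ranking differed from the study's, which stitches the peaks of each sample, counts reads and applies a fixed signal threshold. Here the merged regions in 4 of 4 libraries were stitched. Their clusters were ranked by bases multiplied by enrichment, averaged over the 4 libraries. Of 16190 clusters, 536 (3.31%) lay past the turning point, the place where the ranked curve turns steep, and held 39.0% of the signal. Their median span was 79.7 kb, against 3.24 kb for the rest. In each library ranked on its own, between 466 and 573 clusters passed, and 377 passed in all 4. The 536 clusters were nearest to, or held the start site of, 714 genes, 3.67% of 19447 protein-coding genes.

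GSE1 came first in each library, with a cluster of 563 kb on chromosome 16. KIF26A with ASPG was next. GATA2 with DNAJB8 had rank 4, over 238 kb at chr3:127980686-128218700, and stood at 3, 4, 2 and 6 in replicates 1 to 4. ZMIZ1, the let-7 host gene near PPARA, a cluster 82 kb from NTMT1, FAM222A, the transcriptional regulator gene IRF2BPL and MSI2 were also among the first 10. Below them, CHGA, the gene of chromogranin A in dense-core vesicles, ranked 12 and DLK1, a surface protein of immature neuroendocrine cells, 25. CCND1, the gene of cyclin D1, ranked 107.

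**Figure D2:**
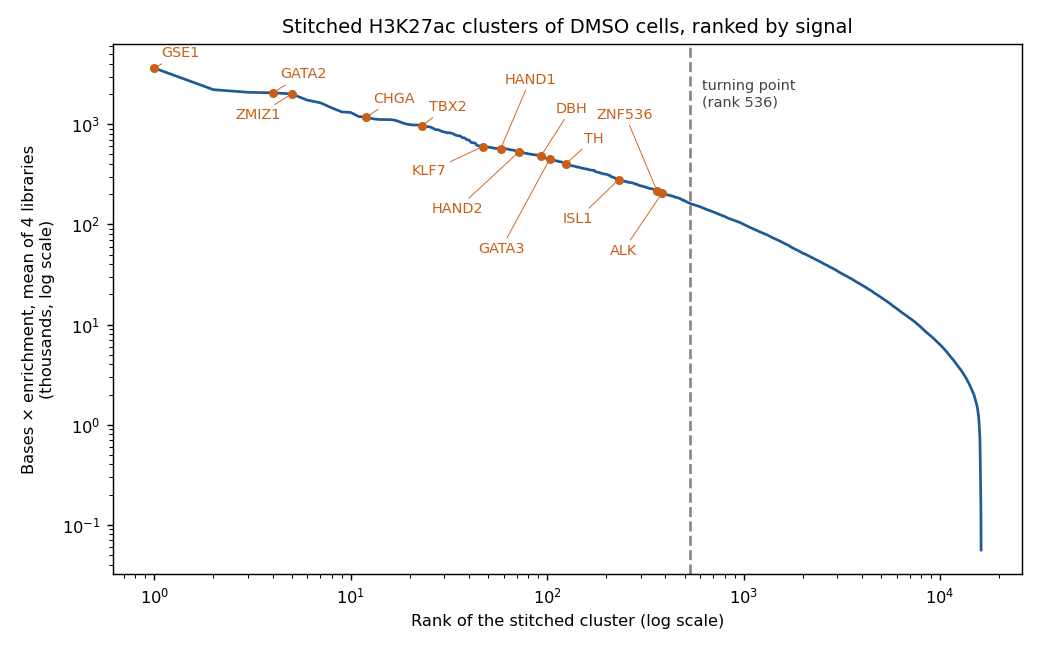
Signal of the stitched clusters (bases multiplied by enrichment, mean of 4 libraries, in units of 1000, log scale) against their rank (log scale), with the turning point at rank 536 as a dashed line and the clusters of named genes as points. GSE1 stands first, GATA2 at rank 4, and the clusters assigned to HAND2, GATA3, DBH and TH (the last also to IGF2) lie between ranks 72 and 124.

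The marker genes of these cells were acetylated in each DMSO library, in different ways. HAND2, a transcription factor of sympathetic neuron development, had a start-site region of 25.2, 24.9, 25.1 and 25.8 kb in replicates 1 to 4 (25.3 ± 0.37 kb, SD, n = 4) and an enrichment of 21.1, 27.97, 27.2 and 25.4 (25.4 ± 3.06). GATA3, a zinc-finger factor of the same lineage, had 31.5, 31.6, 30.9 and 31.1 kb (31.3 ± 0.32 kb) and 20.8, 26.4, 23.6 and 22.4 (23.3 ± 2.38, SD, n = 4). The widths of these regions differed by less than 1 kb between libraries, with no overlap between the genes. MYCN, the driver oncogene, had a narrower region of 5.59, 5.81, 5.43 and 7.76 kb (6.15 ± 1.085 kb, SD, n = 4) and an enrichment that varied most, 15.3, 33.3, 19.96 and 40.1 (27.2 ± 11.5). Replicates 2 and 4 were the high ones at MYCN.

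By rank among genes the markers changed places with the measure. Among the 12515 genes with a region in 4 of 4 libraries at a start site, HAND2 ranked 190 by width, 292 by enrichment and 38 by concentration. GATA3 ranked 116, 533 and 29 in the same order. MYCN ranked 1949 by width and 162 by enrichment, and the concentration tables used here held no region over it. All 3 values of HAND2 and GATA3 lie within the first 533 genes.

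Around them stood an adrenergic list of 20 genes, the transcription factors known for the circuit of these tumors, of which 19 (95%) were marked in 4 of 4 libraries. A start site counted as marked when a peak lay within 1 kb of it, which held for 12540 of 19447 protein-coding genes, 64.5%. The median width of the list's merged start-site regions was 13.2 kb, against 3.23 kb over the 12515 marked genes with such a region. Regions over 10 kb were found at 13 of the 19, and at 11.3% of all marked genes. Median enrichment was 15.6 in the list and 11.9 over marked genes, and median concentration 11.39 and 8.95. The list was drawn from knowledge of these tumors, so its members are not an unbiased sample.

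The widest regions of the list belonged to GATA2, KLF7 and TBX2. GATA2, a zinc-finger factor that acts with GATA3, covered 49.7, 52.4, 47.8 and 50.3 kb in replicates 1 to 4 (50.1 ± 1.90 kb, SD, n = 4) at an enrichment of 22.9 ± 2.85. KLF7, a zinc-finger factor of neuron growth, covered 45.1 ± 3.47 kb at a lower enrichment of 9.20 ± 1.05. TBX2, a T-box factor, covered 44.5 ± 1.92 kb at 19.96 ± 2.53 (SD, n = 4 each). The widths of KLF7 and TBX2 overlapped between libraries, while their enrichments did not. ISL1, a LIM homeobox factor of sympathetic and sensory neurons, covered 24.3 ± 0.88 kb and HAND1, the paralogue of HAND2, 22.2 ± 0.52 kb.

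PHOX2A, a homeobox factor of autonomic neurons, was the strongest of the list. It had an enrichment of 27.99, 37.7, 31.4 and 33.5 in replicates 1 to 4 (32.6 ± 4.04, SD, n = 4), rank 25 of all genes, over 12.8 ± 1.66 kb. Its region, however, also held the start site of INPPL1, the gene of a phosphoinositide phosphatase, so the value cannot be given to PHOX2A alone. SOX11, a factor of immature neurons, had 10.1 ± 1.16 over 5.75 ± 0.78 kb (SD, n = 4).

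At the low end, LMO1, a cofactor of the circuit, had 6.40 ± 2.21 over 1.14 ± 0.39 kb at its widest start-site region. Around it lay 11 regions in 4 of 4 libraries away from start sites, the widest of 9.496 kb at an enrichment of 7.20 ± 0.63 (SD, n = 4). INSM1, a zinc-finger factor of neuroendocrine cells, was marked in 2 of 4 libraries and was the exception of the list. Of the other members, enrichment was measured at TFAP2B (14.0 ± 2.14), EYA1 (9.33 ± 1.68), SIX3 (16.7 ± 4.15), DACH1 (17.6 ± 2.25), SATB1 (11.3 ± 3.63) and ZNF536 (15.6 ± 2.60, SD, n = 4 libraries each). Of these, SIX3 varied most in width, 11.8, 13.1, 6.62 and 14.6 kb in replicates 1 to 4, with replicate 3 low in width and high in enrichment, at 22.2.

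**Figure D3:**
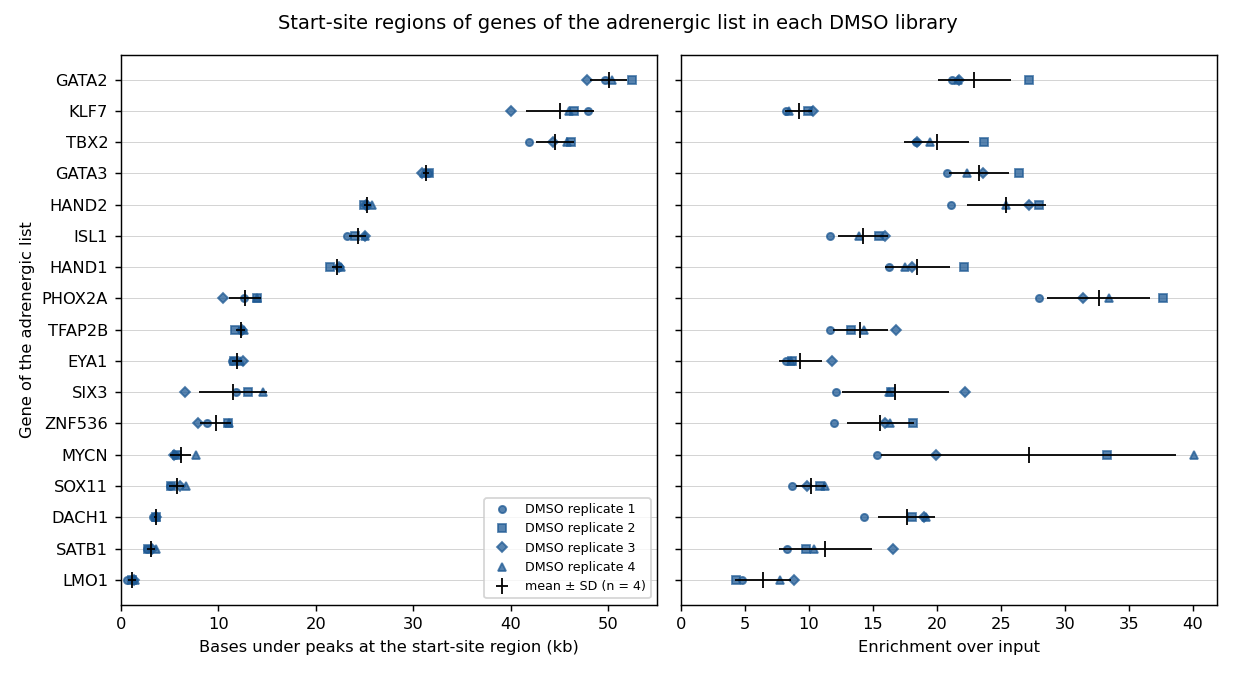
Bases under peaks in kb (left) and enrichment over input (right) at the widest start-site region of 17 marked genes of the adrenergic list, in each of the 4 DMSO libraries (symbols), with the mean and SD (bars, n = 4). Widths agree closely for HAND2 and GATA3, while the enrichment of MYCN ranges between 15.3 and 40.1.

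Of the 20 adrenergic genes, 8 had a stitched cluster past the turning point, against 3.67% of all protein-coding genes. They were GATA2 (rank 4), TBX2 (23), KLF7 (47), HAND1 (58), HAND2 (72), GATA3 (103), ISL1 (231) and ZNF536 (362). The rank of the HAND2 cluster was 89, 103, 35 and 83 in replicates 1 to 4, and that of GATA3 113, 116, 60 and 124. Replicate 3 ranked both highest. The cluster assigned to MYCN, at rank 897, was not past the point. It lay at chr2:16172586-16271607, 91.9 kb away, and did not hold the start-site region of MYCN. The rank of this cluster was 1455, 776, 2498 and 530 in replicates 1 to 4, so it passed in replicate 4, where 559 clusters did. The cluster near HAND1 contained a region 24.5 kb from its start site at chr5:153882306-153911568, with an enrichment of 9.90 ± 1.17 (SD, n = 4), from which a stretch is printed above. The distant region near GATA3 printed above, at chr10:8152962-8162119, lay 52.6 kb away and had 7.20 ± 0.54.

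The surroundings of MYCN had values unlike those elsewhere in the genome. From chr2:16078674 to 16582026, over 503 kb, lay 24 regions in 4 of 4 libraries. The region at the MYCN start site, chr2:16078674-16086444, had the highest −log10 q of all peaks in each library, 3029, 5617, 7345 and 6927 in replicates 1 to 4. No library had a higher value elsewhere, and the median −log10 q was 104.9 in the block and 5.49 over the other regions. The median enrichment of the block was low, 2.42 against 4.34 elsewhere. The MYCN start-site region, with 27.2, and the region at chr2:16358330-16393420, with 10.1, were above both medians. Of the 24 block regions, 9 had an enrichment under 2, which no other region in 4 of 4 libraries had.

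The second region of the block was a wide one with no gene in it. At chr2:16358330-16393420, 278 kb from MYCN, it covered 33.3, 33.2, 26.8 and 34.6 kb in replicates 1 to 4 at an enrichment of 7.50, 14.7, 6.73 and 11.7 (10.1 ± 3.71, SD, n = 4). Replicates 2 and 4 were again higher than replicates 1 and 3. Its cluster, at chr2:16330101-16409473, ranked 131 of all and 197, 105, 273 and 102 by library, and no protein-coding start site lay within 100 kb of it. The ratio of −log10 q to enrichment, on a log2 scale, had a median of 5.39 in the block and 0.34 elsewhere. All 24 block regions were above the 99.9th percentile of that ratio over all regions, 2.82, which 16 regions elsewhere also passed. At a given enrichment, −log10 q grows with the number of reads, so this ratio is high where reads are many. The number of copies of this stretch was not measured here, and its part in these values was not tested. The concentration tables used here held no region between 16062211 and 16689036 on chromosome 2.

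**Figure D4:**
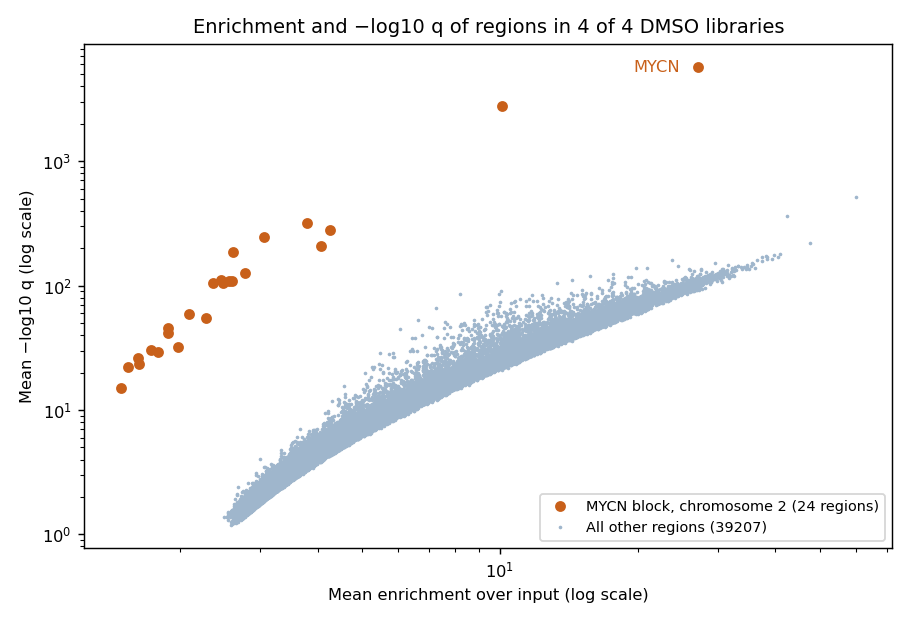
Mean −log10 q (log scale) against mean enrichment over input (log scale) of each region with a peak in 4 of 4 DMSO libraries, with the 24 regions of the MYCN block in orange and the other 39207 in blue. All 24 block regions are above the 99.9th percentile of the ratio of −log10 q to enrichment, which 16 other regions also pass. The medians of −log10 q are 104.9 in the block and 5.49 elsewhere, and the MYCN start site is at the top.

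All 11 genes of catecholamine synthesis and transport were marked in 4 of 4 libraries, against 64.5% of all genes, with a median width of 23.1 kb. CYB561, an electron carrier of the secretory vesicle, had one of the widest regions, 36.7 ± 1.13 kb (SD, n = 4). Clusters past the turning point were assigned to 5 of the 11, against 3.67% of all genes, TH, DDC, DBH and SLC6A2 among them. TH, the gene of the first enzyme of the pathway, had the cluster at rank 124, which was also assigned to IGF2. DBH, of the enzyme that makes noradrenaline, had the cluster at rank 93. The median enrichment of the list, 8.49, was below the 11.9 of marked genes.

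Neuronal and secretory genes are set against the 64.5% of all genes that were marked. Among axon and cytoskeleton genes 16 of 17 were marked (94.1%), L1CAM (27.03 ± 0.96 kb) and ELAVL4 (14.4 ± 0.65 kb) with the widest regions, and STMN4 was marked in 2 libraries. L1CAM is a neural adhesion molecule and ELAVL4 a neuronal RNA-binding protein. Among dense-core vesicle and neuropeptide genes 9 of 12 were marked (75%), not far from the share of all genes, led by CHGA (39.9 ± 2.71 kb) and the neuropeptide precursor VGF (11.3 ± 0.51 kb), and PCSK1, PCSK2 and CPE, which encode prohormone processing enzymes, were marked in 1, 2 and 2 libraries. The surface proteins used as targets in neuroblastoma were marked at 8 of 9 (88.9%), with SLC6A2, the noradrenaline transporter (36.2 ± 2.83 kb), and DLK1 (29.3 ± 4.96 kb) widest.

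Receptors and drivers of neuroblastoma were marked at 13 of 16 (81.25%), against 64.5% of all genes. RET (65.4 ± 10.3 kb) and CCND1 (27.3 ± 4.08 kb) had the widest regions. NTRK2, the receptor for BDNF, had no peak at a start site in any library, which held for 25.9% of all genes. MYC and TERT, the telomerase gene, were each marked in 3 libraries. Clusters past the turning point were assigned to 4 of the 16, against 3.67% of all genes, among them RET, CCND1 and ALK, the last a receptor kinase mutated in some neuroblastomas.

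All 26 genes of the cell cycle and E2F list were marked in 4 of 4 libraries, against 64.5% of all genes, with a median width of 4.61 kb, against 3.23 kb over all marked genes, and a median enrichment of 13.0, against 11.9. E2F1, the transcription factor released at the G1 to S transition, had the widest region, 28.1 ± 5.94 kb, and MCM7, a subunit of the replicative helicase, 8.42 ± 2.44 kb. Housekeeping genes were marked at 13 of 14 (92.9%), with a median width of 4.796 kb and a median enrichment of 14.8, GAPDH (15.6 ± 1.80 kb, SD, n = 4) being widest. The exception, TUBB, lies on chromosome 6 between 29 and 33 Mb, a stretch with no region in 4 of 4 libraries and none of its 145 genes marked. On its flanks 77.4% and 70.3% of genes were marked, so the absence there says nothing of TUBB.

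Of 18 genes of the retinoic acid pathway 11 were marked (61.1%), near the 64.5% of all genes, with a median width of 9.52 kb, against 3.23 kb over marked genes. The retinol receptor gene STRA6 (151 ± 4.63 kb, a region shared with ISLR and CCDC33) and RARA, the gene of retinoic acid receptor alpha (25.9 ± 0.33 kb), were widest. Clusters past the turning point were assigned to 5 of the 18, STRA6, RARA, RXRA, CRABP2 and SOX4, against 3.67% of all genes. RXRG, CYP26A1, CYP26B1, ALDH1A1 and RXRB had no peak at a start site in any library, 5 of the 18, against 25.9% of all genes. RXRG encodes a retinoid X receptor, CYP26A1 and CYP26B1 enzymes that degrade retinoic acid, and ALDH1A1 an enzyme that makes it. RXRB is on chromosome 6, and whether peaks are absent all around it, as in the empty stretch, was not tested.

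Genes of the mesenchymal state, the other type that neuroblastoma cells can take, were marked at 14 of 22, 63.6% against 64.5% of all genes. Their regions were weaker, with a median enrichment of 6.73 against 11.9, and 3.61 kb wide at the median. FOSL2, an AP-1 subunit (8.30 ± 2.02 kb), and IFI16, a DNA sensor (7.64 ± 0.70 kb), were widest. PRRX1, a homeobox factor that defines the state, YAP1, a coactivator of the Hippo pathway, MEOX2 and GLIS3 had no peak at a start site in any library. These were 4 of the 22, not more than the 25.9% of all genes without a peak. Of the neural crest and Schwann list 5 of 12 were marked (41.7%), SOX9 (8.19 ± 1.47 kb) with the widest region. PAX3, EDNRB and CDH19 had no peak in any library, 3 of the 12, near the share of all genes. SOX10, the defining factor of Schwann cells, was marked in 3 libraries.

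Immune, endothelial and epithelial, liver and muscle markers were mostly unmarked, where 64.5% of all genes were marked and 25.9% had no peak in any library. Of immune genes 2 of 14 were marked (14.3%), CD68 and CD14, at enrichments of 8.48 ± 1.17 and 4.77 ± 0.85, while PTPRC, CD3E, CD3D, MS4A1, LYZ, ITGAM and CD79A had no peak at a start site in any library. Of endothelial genes 2 of 8 were marked (25%), CLDN5 and VWF, at the low enrichments of 3.24 ± 0.27 and 2.84 ± 0.12, and KDR, TEK, TIE1, ERG and EMCN had none. Of epithelial, liver and muscle genes 2 of 14 were marked (14.3%), APOB and EPCAM, at enrichments of 4.59 ± 0.78 and 12.8 ± 1.93, and KRT5, KRT14, ALB, SERPINA1, MYH6, MYH7 and GCG had none. Of these 14, INS alone was assigned a cluster past the turning point, against 3.67% of all genes. INS lies between IGF2 and TH, which share the cluster at rank 124, so that cluster cannot be given to INS alone. With stitching within 5 kb the list had 0 such genes. Of fibroblast genes 5 of 9 were marked (55.6%), not far from the share of all genes. PDGFRB, a growth factor receptor (30.9 ± 3.96 kb), and THY1, a surface glycoprotein that neurons also carry (17.8 ± 4.11 kb), had wide regions with clusters past the turning point, while the collagen genes COL1A2 and COL3A1 and POSTN had no peak at a start site (SD, n = 4 libraries each).

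The HOX genes, which lay down position along the body axis, were marked at 12 of 39 (30.8%), against 64.5% of all genes. No gene of the HOXA and HOXB clusters was marked in 4 of 4 libraries, while the HOXC and HOXD clusters each held marked and unmarked genes. One region of 54.3 kb at the HOXC cluster, which covered 44.8 ± 7.80 kb at an enrichment of 13.1 ± 1.37 (SD, n = 4), took in the start sites of HOXC4, HOXC5, HOXC6, HOXC8 and HOXC9, so these members are not independent. No peak was found in any library at the start sites of HOXA2 to HOXA7, HOXA9, HOXA10, HOXB1 to HOXB9, HOXD4, HOXD11 and HOXD12.

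**Figure D5:**
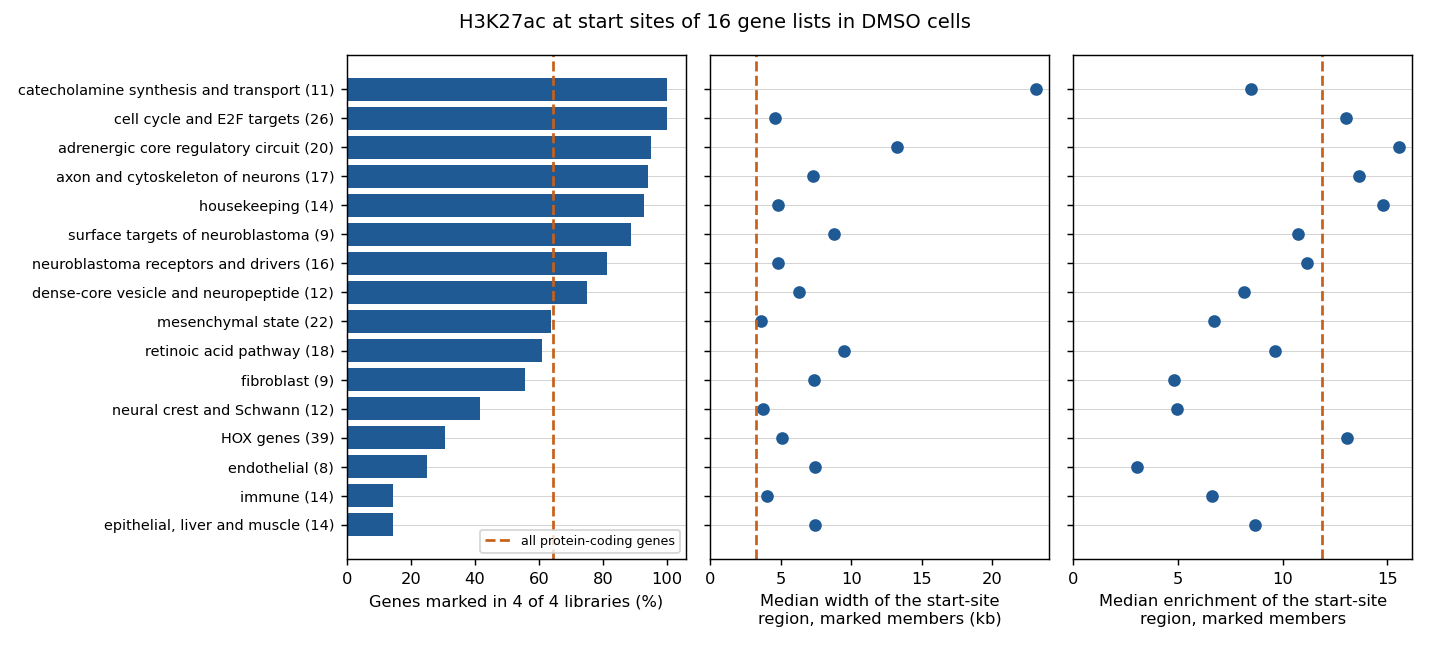
Share of genes marked at a start site in 4 of 4 DMSO libraries (left, %), median width in kb (middle) and median enrichment (right) of the start-site regions of marked members, for 16 gene lists with the number of genes in brackets and all protein-coding genes as dashed lines. Catecholamine and cell cycle genes are marked at 100%, and the catecholamine list is the widest at 23.1 kb while its enrichment of 8.49 lies under the 11.9 of marked genes.

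The promoters of marked and unmarked genes differed in composition. The 12508 promoters of genes marked in 4 of 4 libraries had a median GC content of 66.7% and 28 CpG in 300 bases, against 51.3% and 5 in the 4812 of genes with no peak at a start site. The 20 adrenergic promoters were at 58.8% and 16. GC boxes (GGGCGG) occurred in 74.9% of marked and 30.3% of unmarked promoters, ETS letters (CCGGAAG) in 19.3% and 3.99%, NRF1 letters (GCGCATGCG) in 3.78% and 0.75%, and YY1 letters (AAGATGGCG) in 4.25% and 0.31%. The TATA box (TATAAA) went the other way, at 5.05% of marked and 21.1% of unmarked promoters. CCAAT was alike in both, 36.1% and 38.1%, and CACGTG stood at 10.3% and 6.03%. GC content itself changes how often such letters occur, and its part was not tested.

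Distant regions were searched for the letters of lineage factors in their middle 300 bases. GATA letters (AGATAA) occurred in 19.8% of 24924 distant regions in 4 of 4 libraries, against 14.7% of 49564 distant regions in 1 library, and the paired homeobox motif in 0.85% and 0.48%. The E-box of HAND proteins (CAGATG) occurred in 23.6% and 22.8%, TFAP2 letters (GCCNNNGGC) in 11.7% and 11.1%, and AP-1 letters (TGANTCA) in 10.99% and 9.74%. In the 1000 widest of the distant regions in 4 of 4 libraries, the shares were 16.5% for GATA, 0.3% for the paired homeobox motif, 25.6% for the E-box of HAND proteins, 13.3% for TFAP2 and 8.3% for AP-1 letters. Those of the paired homeobox motif, with 3 matching regions, and AP-1 were below the shares in regions of 1 library. All regions in 1 library, near or far, had a median width of 342 bp. The middle 300 bases are thus most of such a region and a small part of a wide one, so the shares are not like for like. Median GC content was 47.7% in the reproducible distant regions and 49.3% in those of 1 library. A match of letters is a description and shows no binding.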

How the data were processed

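Samples were placed in groups by their titles, which also number the replicates. The submitters' processing notes name fastp 0.12.4 for trimming, Bowtie2 2.4.4 with the hg19 build for alignment (a different release stands in the study's methods), MACS2 2.2.7.1 and DiffBind 3.4. With MACS2 the authors called broad peaks library by library, with input as background. The deposited peaks hold the authors' ratio, a fold enrichment over input. They also hold the authors' −log10 q. The authors' peak score and −log10 p were not used. The deposited DiffBind tables hold the authors' mean log2 concentration of DMSO, over regions that the methods define by peaks in 2 or more replicates of a condition. Their fold, p-value and FDR columns hold the authors' comparisons and were not used.

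Peaks of the 4 libraries were merged in Python 3.11.15 with numpy 2.4.6 and pandas 2.3.3. A library's value at a region is the length-weighted mean enrichment of its peaks there, its width the bases they cover. GENCODE release 44 lifted to GRCh37 gave 78266 protein-coding start sites of 19447 genes, and each region was assigned to the nearest within 100 kb, which need not be the gene it regulates. Of the regions in 4 of 4 libraries, 14 lay on sequence names outside the reference and none past a sequence end. All is description with no test, since the libraries form 1 group. The steps were tested on simulated data. Base composition and mappability affect peak calling, and blacklisted stretches are not stated in the sources used here.

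The members, the 16 gene lists and the measures were chosen with earlier results of these data known. Named are the adrenergic genes, the genes nearest to the 10 strongest, widest and highest-concentration regions and the first 10 clusters, and from each other list the members with the pair of widest start-site regions and those with none. Other names were chosen after their values were seen. Some genes that this rule names, with their regions and clusters, are not reported here. PECAM1, on the endothelial list, was not in the annotation used here.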

Additional observations from a re-analysis of the deposited data

Results flagged for a closer look

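In 9 of 97 groups of 4 libraries looked at (9.28%) 1 library lay far from the other 3, by the gap to its nearest neighbour over the whole range, where chance gives about 1 in 20. At the distant PPP4R2 region, replicate 4 covered 1.242 kb, above the others, and at the MYCN start site it covered 7.757 kb, also the highest. Replicate 2 was the highest in enrichment at CUL1, with 46.5, and at GATA2, with 27.2. Replicate 3 covered the least at CLPB (81.7 kb), MSI2 (62.7 kb) and KIF26A (67.8 kb) and had the highest enrichment at EYA1 (11.8). Replicate 1 covered the least at DACH1, 3.35 kb. In addition, 14 regions in 4 of 4 libraries lay on sequence names outside the reference assembly and entered no count of genes.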

How the results depend on the processing

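The counts of regions depended on the overlap and the peak threshold. Where each library had to cover at least 50% of a region, 19579 regions remained in 4 of 4 libraries, with a median width of 3110 bp, a median enrichment of 7.02 and 49.98% near a start site. With peaks of a −log10 q of at least 5, the values were 16638 regions, 3620 bp, 10.0 and 65.1%, and 352 clusters passed the turning point. With near taken as within 1 kb, 33.3% of regions were near. Leaving out each replicate in turn gave 41164 to 48628 regions, 2368 to 2546 bp, an enrichment of 3.81 to 4.21, 32.0% to 35.3% near, 12553 to 12861 marked genes and 527 to 595 clusters. The lowest enrichment and share near came without replicate 3. Marked genes numbered 11201 at the stricter threshold and 12049 with canonical start sites only, and 65.0% of genes outside the empty stretch of chromosome 6 were marked. The last pair of alternatives, and all those of the marked genes on a list, were added after the data were seen. Of 208 values for the gene lists, 29 moved by over 1.5 times, among them the immune and endothelial counts of marked genes, both 0 at the stricter threshold. The adrenergic list had 18 to 19 marked genes over the alternatives and 7 to 10 genes with a cluster, 7 without replicate 3 or with stitching within 5 kb and 10 with start sites unmasked. No paired analysis was possible because the libraries form 1 group and no result comes from a test. Read depth is unknown, so an absent peak in a library need not mean less acetylation.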
